A study of Mus musculus with 2 samples.

Results

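The genes described here are 28 genes of cholesterol synthesis and of its control by the transcription factor SREBP2, out of 24014 gene symbols in the count tables of 2 mouse bone marrow libraries. They were chosen by name from the pathway: 20 enzymes from acetoacetyl-CoA to cholesterol, 5 genes of the SREBP control system and 3 genes of sterol transport. All 28 had a column in both tables and at least 1 UMI (a molecule counted once by its barcode) in both libraries. They were whole-transcriptome libraries from the BD Rhapsody system, which captures single cells in microwells. Both came from bone marrow of young, male, wild-type mice, whose strain the labels spell C57B/6. One library came from mice on normal chow (ND), the other from mice on a high fat diet with 60% fat (HFD), each after 16 weeks of feeding. The number of mice behind each library, any pooling of mice and any sort are not given in the labels, and there was 1 library per diet. No test between diets was therefore possible, no p-value is given, and every interval below covers counting error only, so that a difference between the libraries cannot be told apart from a difference between mice or preparations.

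Cells make cholesterol from acetyl-CoA through mevalonate, isoprenoid diphosphates, squalene and a series of sterol rings. When sterol in the endoplasmic reticulum is low, SCAP carries SREBP2 to the Golgi, where it is cleaved and released to switch on nearly every enzyme of this route. When sterol is high, the INSIG proteins hold SCAP and SREBP2 back, and Insig1 is itself an SREBP target, so that its mRNA is widely used as a readout of the pathway. In blood formation the route supplies membrane for dividing cells and prenyl groups for small GTPases.

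The deposited counts covered 16817 cells and 117999042 UMIs in the ND library, and 17282 cells and 117773643 UMIs in the HFD library. After filtering, 13890 ND cells (median 4480 UMIs) and 15214 HFD cells (median 4075.5 UMIs) remained. The libraries shared 329 cell labels, which number bead barcodes that both libraries draw from one set. Clusters were named from marker genes, giving 17 classes with at least 100 cells in each library. They are called "X-like" because only markers name them. In the HSPC-like class (haematopoietic stem and progenitor cells) all 18 stem and progenitor markers were detected, and their summed level was 6266 CPM (UMIs of a gene, scaled to a fixed total for each class and library) in the ND library and 5889 CPM in the HFD library, with 0 of the 18 called (1.5-fold or more apart between the libraries, with 0 outside the log2 interval). The heat shock genes Hspa1a and Hspa1b were 3.68 and 3.60 higher on the log2 scale in the HFD library over all kept cells, and their part in the results below was not tested.

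Promoter sequence is shown for 4 members, because their values differ in the results below: Hmgcs1, Mvk and Insig1 were called lower in at least 1 class, and Lbr, the most abundant enzyme, in none of 17. The stretches come from RefSeq promoters on GRCm38.p6, lie upstream of the annotated start and hold no annotated exon. Coordinates are chr13:119690101-119690350 on the plus strand for Hmgcs1, chr5:114444061-114444268 on the plus strand for Mvk, chr5:28071162-28071362 on the plus strand for Insig1 and chr1:181842402-181842651 on the minus strand for Lbr. Capitals mark matches on either strand to a classical sterol regulatory element (TCACNCCAC) and to the CCAAT box (CCAAT, bound by NF-Y, a known partner of SREBP).
Hmgcs1: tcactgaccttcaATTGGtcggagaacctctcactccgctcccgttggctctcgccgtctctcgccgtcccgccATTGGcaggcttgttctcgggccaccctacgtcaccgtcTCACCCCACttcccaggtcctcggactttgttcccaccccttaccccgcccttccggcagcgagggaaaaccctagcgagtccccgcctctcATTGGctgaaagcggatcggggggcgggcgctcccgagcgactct
Mvk: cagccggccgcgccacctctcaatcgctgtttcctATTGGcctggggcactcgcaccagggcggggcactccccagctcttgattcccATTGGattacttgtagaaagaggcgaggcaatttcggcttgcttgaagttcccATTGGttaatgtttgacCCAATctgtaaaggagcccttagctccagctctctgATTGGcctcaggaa
Insig1: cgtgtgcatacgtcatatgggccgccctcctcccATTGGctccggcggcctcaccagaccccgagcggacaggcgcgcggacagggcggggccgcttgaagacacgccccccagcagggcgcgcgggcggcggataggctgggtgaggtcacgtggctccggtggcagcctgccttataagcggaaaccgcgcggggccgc
Lbr: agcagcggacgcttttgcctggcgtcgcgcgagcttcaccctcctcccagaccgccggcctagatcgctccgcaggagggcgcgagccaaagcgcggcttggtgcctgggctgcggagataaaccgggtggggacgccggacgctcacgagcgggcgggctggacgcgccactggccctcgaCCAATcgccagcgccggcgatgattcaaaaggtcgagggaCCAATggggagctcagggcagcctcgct
The Hmgcs1 stretch holds 1 match to the sterol regulatory element and 3 CCAAT boxes, the Mvk stretch 5 CCAAT boxes, the Insig1 stretch 1 and the Lbr stretch 2. RefSeq promoters were matched for 23 of the 28 members, with 250 bases before the start read in each. A CCAAT box was present in 21 of these 23, against 37.5% of all 27025 genes with a promoter entry. Among the 11610 of these genes with at least 20 UMIs over all cells of both libraries, before filtering, the share was 39.9%. The GC box (GGGCGG, bound by Sp1) was also present in 21 of 23, against 35.4% and 59.3%. The sterol regulatory element was present in 1 of 23, against 1.22% and 1.27%. No motif lies within another. A match is a description of the letters, not of a bound site. Only these exact letters were searched, so that a variant of a motif was not counted, and a missing match does not show a missing site.

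Over the classes, the pathway ran at very different levels. Lbr, which encodes the lamin B receptor of the nuclear envelope and also reduces the sterol ring, gave 47.5% of all enzyme UMIs, from 11.0% in macrophage-like to 80.4% in mature neutrophil-like cells. Sums of enzymes are therefore given over the other 19. In the ND library their summed level was highest in pDC-like cells (plasmacytoid dendritic cells) at 856 CPM. The cDC-like cells (conventional dendritic cells) followed at 645 CPM, HSPC-like cells at 493 CPM and megakaryocyte-like cells at 491 CPM. The lowest levels were 195 CPM in plasma cell-like and 183 CPM in mature neutrophil-like cells. The same class was first, and mature neutrophil-like cells last, in the HFD library, at 751 and 164 CPM. Counting intervals did not overlap between pDC-like cells and the next class in either library, whereas HSPC-like and megakaryocyte-like cells overlapped in both.

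**Figure D1:**
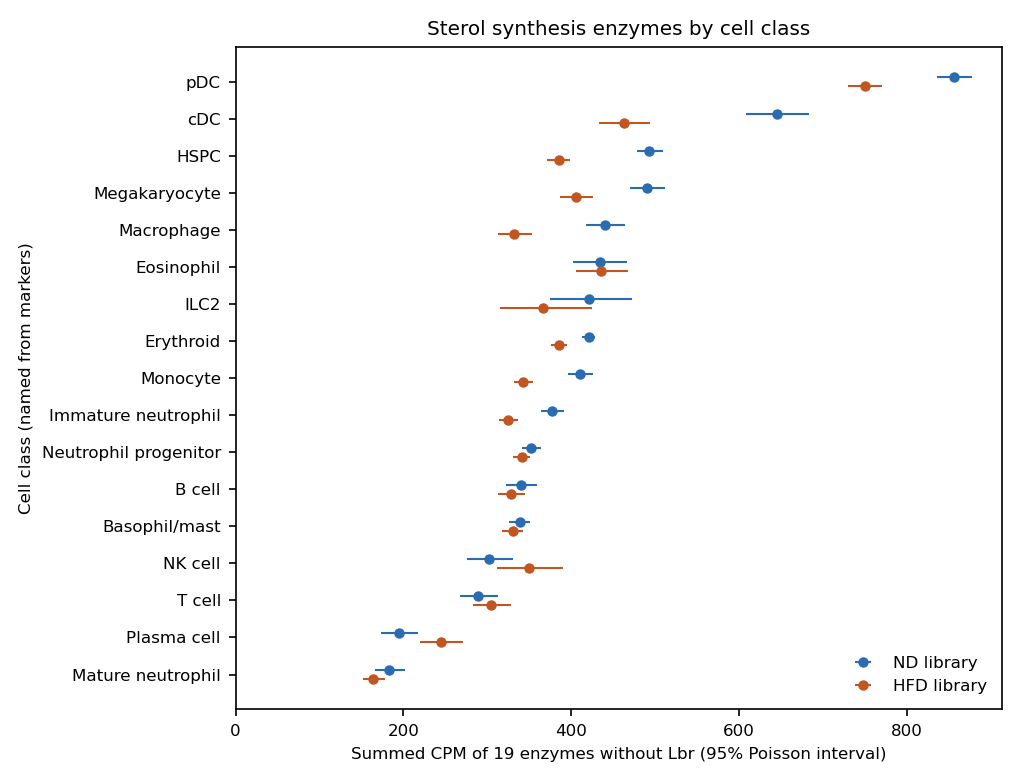
Summed CPM of the 19 enzymes without Lbr (x axis, from 0) in each of 17 marker-named classes (y axis), with 1 point per library (ND blue, HFD orange) and 95% Poisson intervals. The pDC-like cells stand highest in both libraries at 856 and 751 CPM, and the gap between the libraries is visible in cDC-like (645 and 463 CPM) and HSPC-like cells (493 and 385 CPM).

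In the HFD library the 19 enzymes together were lower in several classes. On the log2 scale, the HFD level over the ND level stood at -0.48 (95% interval -0.61 to -0.35) in cDC-like, -0.41 (-0.52 to -0.29) in macrophage-like and -0.36 (-0.43 to -0.29) in HSPC-like cells. It was -0.27 (-0.37 to -0.18) in megakaryocyte-like, -0.26 (-0.33 to -0.19) in monocyte-like and -0.22 (-0.29 to -0.14) in immature neutrophil-like cells. In percent, the level was 28.3% lower in cDC-like, 24.5% lower in macrophage-like and 22.0% lower in HSPC-like cells. Smaller ratios whose intervals also lay below 0 were found in pDC-like (-0.19) and erythroid-like cells (-0.13). Plasma cell-like cells had the opposite sign, at 0.33 (0.10 to 0.55), and with Lbr included their sum stood at 0.16 (-0.03 to 0.35). With cells thinned to 1000 UMIs, the mean count of the 20 enzymes per cell there was 0.268 in the ND and 0.243 in the HFD library. In the same class the immature neutrophil markers summed to 2391 and 161 CPM with 7 of 11 called lower, and the eosinophil markers to 2535 and 1176 CPM with 6 of 10 called lower, and their part was not tested. The intervals reached across 0 in neutrophil progenitor-like (-0.05), mature neutrophil-like (-0.16), B cell-like (-0.05), T cell-like (0.08), NK cell-like (0.21), ILC2-like (-0.20), basophil/mast-like (-0.04) and eosinophil-like cells (0.01). The B cell-like class held 3 clusters. Its cluster 27, led by Ighd and Fcer2a (262 ND and 318 HFD cells), stood at -0.46 (-0.72 to -0.20), while clusters 14 and 26 each stood at 0.04 with intervals across 0. Ratios were not tested against each other between classes.

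With Lbr included, the sum of 20 enzymes stood at -0.18 (-0.24 to -0.13) in HSPC-like cells and -0.35 (-0.45 to -0.25) in cDC-like cells. In some classes its interval lay below 0 where that of the 19 reached across 0. These were neutrophil progenitor-like (-0.06, -0.11 to -0.01), B cell-like (-0.09, -0.17 to -0.02) and basophil/mast-like cells (-0.05, -0.09 to -0.01). Lbr itself was at 0.10 (0.01 to 0.19) in HSPC-like cells, with 257 CPM in the ND and 276 CPM in the HFD library. Across the 17 classes its median ratio was -0.06, with 11 of 17 below 0.

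**Figure D2:**
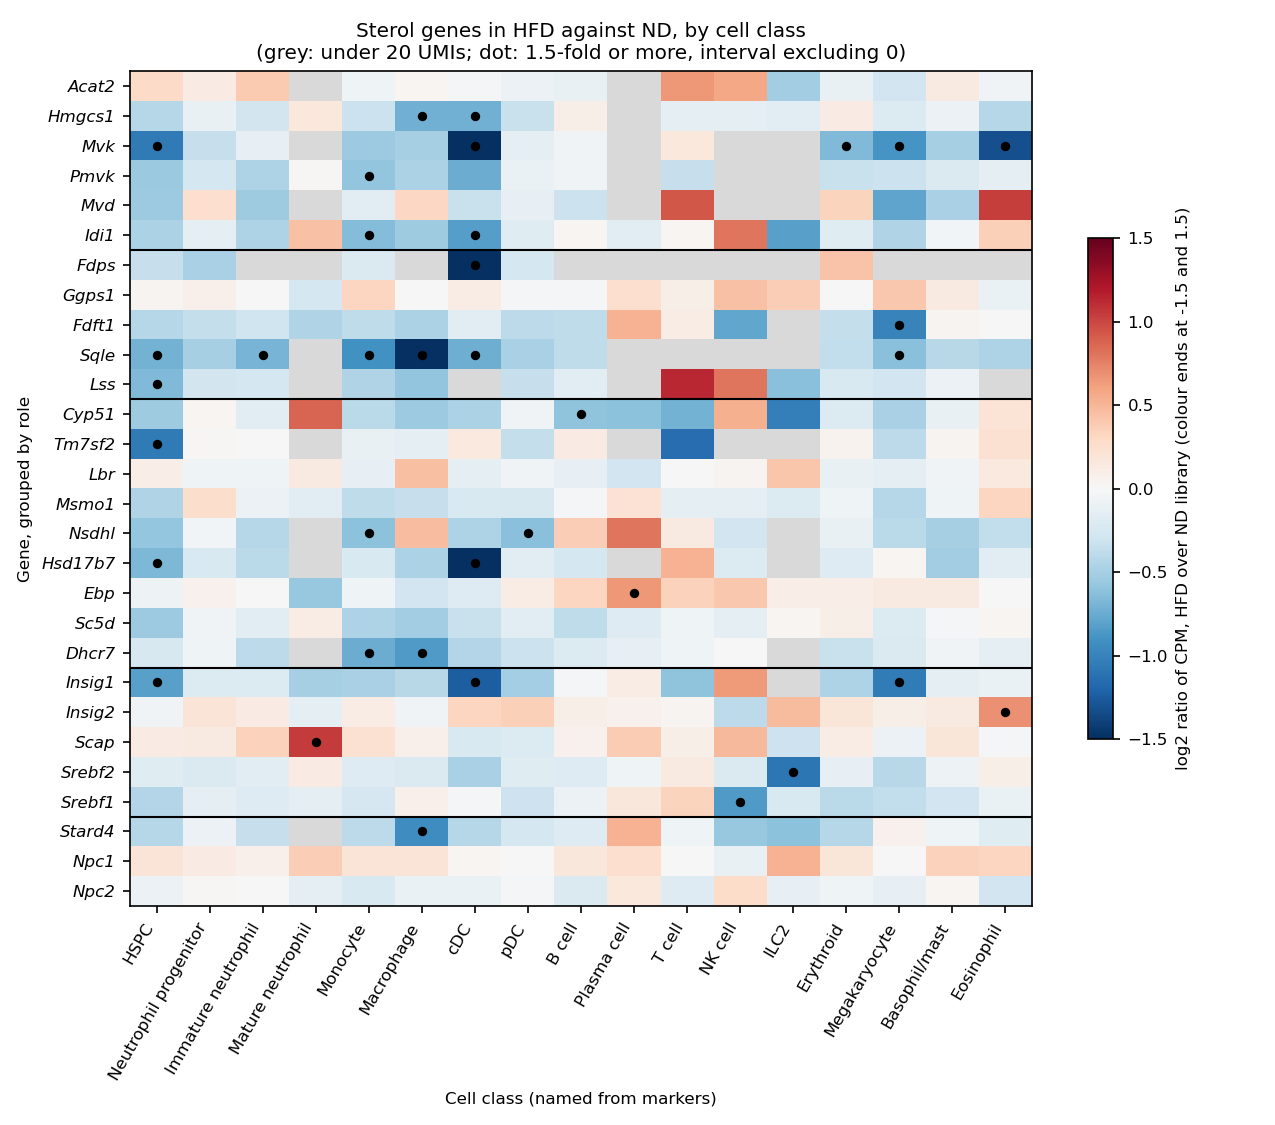
Log2 ratio of CPM, HFD over ND (colour, blue lower and red higher in HFD, ending at -1.5 and 1.5), for the 28 members (rows, grouped by role) in 17 classes (columns); grey cells have under 20 UMIs and black dots mark called values. Lower calls gather in the HSPC-like, monocyte-like, macrophage-like, cDC-like and megakaryocyte-like columns. The pDC-like column has 1 lower call but 26 of 28 members below 0. The Sqle and Dhcr7 rows show no measured class above 0.

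A member was called when its level differed by 1.5-fold or more and 0 lay outside the interval, provided that it had at least 20 UMIs over both libraries in the class. In HSPC-like cells 6 of 28 measured members were called lower and 0 higher, against 2.29% lower and 1.54% higher of the 11785 genes measured there. The median ratio of the 28 members was -0.43, against 0.00 for all genes, and 23 of 28 lay below 0, against 49.4% of all genes. In cDC-like cells 7 of 27 were called lower (all genes 2.72%), in monocyte-like cells 5 of 28 (1.9%), in macrophage-like cells 4 of 27 (2.26%) and in megakaryocyte-like cells 4 of 27 (1.97%). None was called higher in these 4 classes, against 4.38%, 2.83%, 3.57% and 2.98% of all genes, in that order. The members' medians there were -0.34, -0.29, -0.35 and -0.29, in that order, against medians of all genes between -0.02 and 0.02. Members below 0 were 23 of 27, 24 of 28, 19 of 27 and 22 of 27, against 46.6% to 53.4% of genes. In pDC-like cells 26 of 28 lay below 0 (all genes 50.6%), with a median of -0.18 and 1 called lower (2.12%). Immature neutrophil-like cells had 22 of 27 below 0 (46.4%), a median of -0.17 and 1 called lower (2.06%). Neutrophil progenitor-like cells had no member called lower, against 1.57% of genes, and a members' median of -0.07. T cell-like and basophil/mast-like cells also had none lower (1.73% and 1.47% of genes). The same held for mature neutrophil-like cells (0 of 17 measured, 4.14% of genes) and plasma cell-like cells (0 of 18, 6.00% of genes).

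In HSPC-like cells, the mevalonate steps had a median ratio of -0.51 over 6 genes. Mvk (mevalonate kinase) was counted 72 times in the ND and 33 times in the HFD library, that is 8.86 and 4.26 CPM, a ratio of -1.06 (-1.70 to -0.44), and was called lower. Hmgcs1, which makes HMG-CoA, had 357 and 253 UMIs and a ratio of -0.43 (-0.67 to -0.19), short of the 1.5-fold rule. Idi1, which isomerises isopentenyl diphosphate, had 549 and 378 UMIs, or 67.6 and 48.8 CPM, and a ratio of -0.47 (-0.66 to -0.28). These 3 genes were lower in the HFD library with intervals below 0. Pmvk, the next kinase, stood at -0.56 (-1.05 to -0.09), Mvd, the decarboxylase, at -0.54 (-1.52 to 0.39) from 43 UMIs, and Acat2, the cytosolic thiolase that opens the route, at 0.28 (0.00 to 0.56). Acat2 was thus the mevalonate member above 0.

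The prenyl and squalene steps had a median of -0.43 over 5 genes in the same cells. Sqle, squalene epoxidase, a rate-limiting step of the later route, had 272 and 159 UMIs, or 33.5 and 20.5 CPM, and a ratio of -0.71 (-0.997 to -0.42). Lss, which closes the first sterol ring, had 113 and 68 UMIs, or 13.9 and 8.78 CPM, and a ratio of -0.66 (-1.12 to -0.22). Both were called lower. Fdft1, which joins farnesyl units into squalene, was at -0.43 (-0.80 to -0.06). Fdps had 21 UMIs in all and a ratio of -0.35 with an interval from -1.77 to 1.02, too few to place it, and near-identical copies elsewhere in the genome could take some of its reads. Ggps1, which makes geranylgeranyl diphosphate for protein prenylation rather than for sterol, had 388 and 381 UMIs, or 47.7 and 49.2 CPM, and a ratio of 0.04 (-0.17 to 0.25).

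The sterol ring steps had a median of -0.53 over 9 genes. Tm7sf2, a sterol reductase that acts on the same bond as Lbr, had 90 and 41 UMIs, or 11.1 and 5.29 CPM, and a ratio of -1.07 (-1.64 to -0.52). Hsd17b7, a sterol ketoreductase, had 141 and 84 UMIs, or 17.4 and 10.8 CPM, and a ratio of -0.68 (-1.09 to -0.28). Both were called lower. Ratios from -0.58 to -0.45 with intervals below 0 were found for Nsdhl (-0.58), Sc5d (-0.55), Cyp51 (-0.53) and Msmo1 (-0.45), which modify the ring after lanosterol. Dhcr7, the last reductase of one branch, was at -0.24 (-0.58 to 0.08), and Ebp, the sterol isomerase, at -0.07 (-0.27 to 0.12) with 55.7 and 52.9 CPM.

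Among the control genes, Insig1 had 463 UMIs in the ND and 251 in the HFD library, or 57.0 and 32.4 CPM, a ratio of -0.81 (-1.04 to -0.59), and was called lower. Its paralogue Insig2, whose mRNA is not induced by SREBP2 in the same way, was at -0.05 (-0.31 to 0.21), with 32.5 and 31.4 CPM. Srebf2, the gene of SREBP2, had 1292 and 1089 UMIs, 159.0 and 141 CPM, and a ratio of -0.18 (-0.30 to -0.06). The paralogous pair of INSIG genes therefore differed in its ratios. Srebf1, whose product drives fatty acid synthesis, was at -0.44 (-0.70 to -0.17), and Scap, with 516 and 534 UMIs and 63.5 and 68.9 CPM, at 0.12 (-0.06 to 0.30). Of the transport genes, Stard4, a cytosolic sterol carrier, had 880 and 623 UMIs, or 108 and 80.4 CPM, and a ratio of -0.43 (-0.58 to -0.28). Npc2 and Npc1, which export sterol from the lysosome, were at -0.09 (-0.20 to 0.02), with 167 and 157 CPM, and at 0.20 (-0.02 to 0.42).

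**Figure D3:**
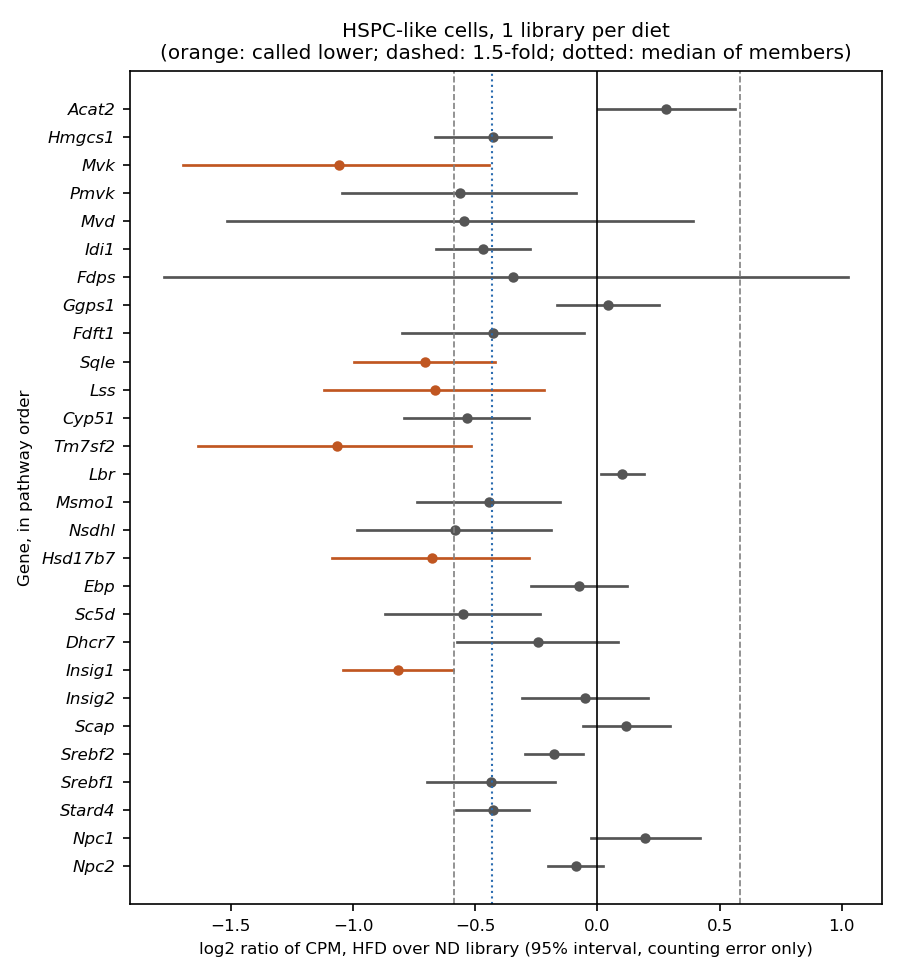
Log2 ratio of CPM, HFD over ND (x axis), for each of the 28 members in HSPC-like cells (y axis, pathway order), with exact 95% intervals for counting error; orange marks the 6 called lower, dashed lines 1.5-fold and the dotted line the members' median of -0.43. Insig1 at -0.81 lies apart from Insig2 at -0.05, and Acat2, Ggps1, Lbr, Scap and Npc1 lie above 0.

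The share of HSPC-like cells with at least 1 UMI gave the same order as the CPM. Insig1 was seen in 36.5% (exact interval 33.3 to 39.9) of 832 ND cells and 24.6% (21.6 to 27.8) of 761 HFD cells, at median depths of 8555.5 and 8895 UMIs per cell. Sqle was seen in 24.5% (21.6 to 27.6) and 15.5% (13.01 to 18.3) of cells. Mature neutrophil-like cells, where the pathway is lowest, gave 2.30% and 1.65% for Insig1 and 0.230% and 0.198% for Sqle at depths of 2380 and 2309 UMIs. With every cell thinned to 1000 UMIs, which left out 1 shallower cell per library, Insig1 was seen in 5.78% (4.29 to 7.59) and 2.76% (1.72 to 4.19) of HSPC-like cells. The thinned shares of Sqle were 2.77% (1.76 to 4.12) and 1.58% (0.82 to 2.74), whose intervals overlap.

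Other gene lists in HSPC-like cells held few or no called genes. S phase genes had a median ratio of 0.18 (22 of 25 above 0, none called) and G2 and M phase genes one of 0.18 (24 of 25 above 0, none called). Of 16 other sterol-pathway genes none was called, with a median of -0.02. Fatty acid synthesis had no call among 12 measured of 15 genes and a median of -0.08, and isoprenoid use none among 14 and a median of 0.00. As a sum, however, fatty acid synthesis was lower, at 1043 and 956 CPM or -0.13 (-0.17 to -0.08), with 9 of 12 below 0. The isoprenoid use sum stood at 0.03 (-0.03 to 0.10). In the list of sterol efflux, esterification and LXR genes 1 of 15 measured was called higher (1.54% of all genes), Soat2, a sterol acyltransferase, at 0.89 (0.22 to 1.59, 30 and 53 UMIs). Markers of some other cell types also differed in this class. The immature neutrophil markers summed to 44.1 CPM in the ND and 68.2 CPM in the HFD library, with 4 of 11 called higher. The monocyte markers summed to 469 and 552 CPM with 4 of 17 called higher, and the macrophage markers to 136 and 107 CPM with 5 of 17 called lower. Their part in the result was not tested. Hspa1a and Hspa1b were 4.72 and 4.16 higher here on the log2 scale, from 10 and 35 UMIs in the ND library.

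The HSPC-like class was 1 cluster at the main resolution of the clustering. At a Leiden resolution of 2.0, a split chosen after the class result was known, 3 clusters bore the HSPC-like name, and together they also took in cells outside the class. Cluster 20 was led by Hlf, with Myct1, Meis1 and Hoxa9 among its top genes, all of them genes of stem-like cells, and held 498 ND and 389 HFD cells. There the 19 enzymes summed to 560 CPM in the ND and 389 CPM in the HFD library, a ratio of -0.53 (-0.63 to -0.42). Called lower were 9 of 26 measured members (2.22% of all genes), with a members' median of -0.57 against 0.02. Nsdhl was at -1.06, Cyp51 at -0.99, Sqle at -0.98, Insig1 and Hsd17b7 at -0.97, Idi1 and Msmo1 at -0.90, Fdft1 at -0.89 and Lss at -0.81. Insig1 had 286 and 114 UMIs, or 73.3 and 37.3 CPM. Median depth was 7360 and 7334 UMIs, and the summed stem and progenitor markers were at -0.04 (-0.06 to -0.01).

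The other clusters bearing the HSPC-like name gave smaller ratios of the enzyme sum. Cluster 8, led by Dntt with 243 ND and 281 HFD cells, stood at -0.23 (-0.33 to -0.12), with 4 of 26 members called lower (1.77% of all genes): Tm7sf2 (-1.501), Mvk (-1.36), Sc5d (-0.72) and Insig1 (-0.66). Cluster 11, led by F2r with 343 and 292 cells, stood at -0.19 (-0.31 to -0.07). There 3 of 27 were called lower (1.96%), Insig1 (-1.23), Fdft1 (-0.97) and Sqle (-0.70), and 1 higher (2.02%), Ggps1 at 0.92 (0.50 to 1.35). Insig1 was the member called lower in each of the 3. F2r was also a top gene of the main megakaryocyte-like cluster led by Pf4, which held 465 ND and 396 HFD cells. At resolution 2.0 the megakaryocyte-like cluster led by Pf4 held 141 and 118. Cluster 11 may therefore share many cells, and its calls, with the megakaryocyte-like class, and this overlap was not counted. The interval of the enzyme sum in cluster 20 did not overlap that of either other cluster. Its G2 and M phase sum was at -0.14 (-0.24 to -0.03), whereas that of cluster 11 was at 0.20 (0.08 to 0.32), and the part of cell division in these ratios was not tested.

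**Figure D4:**
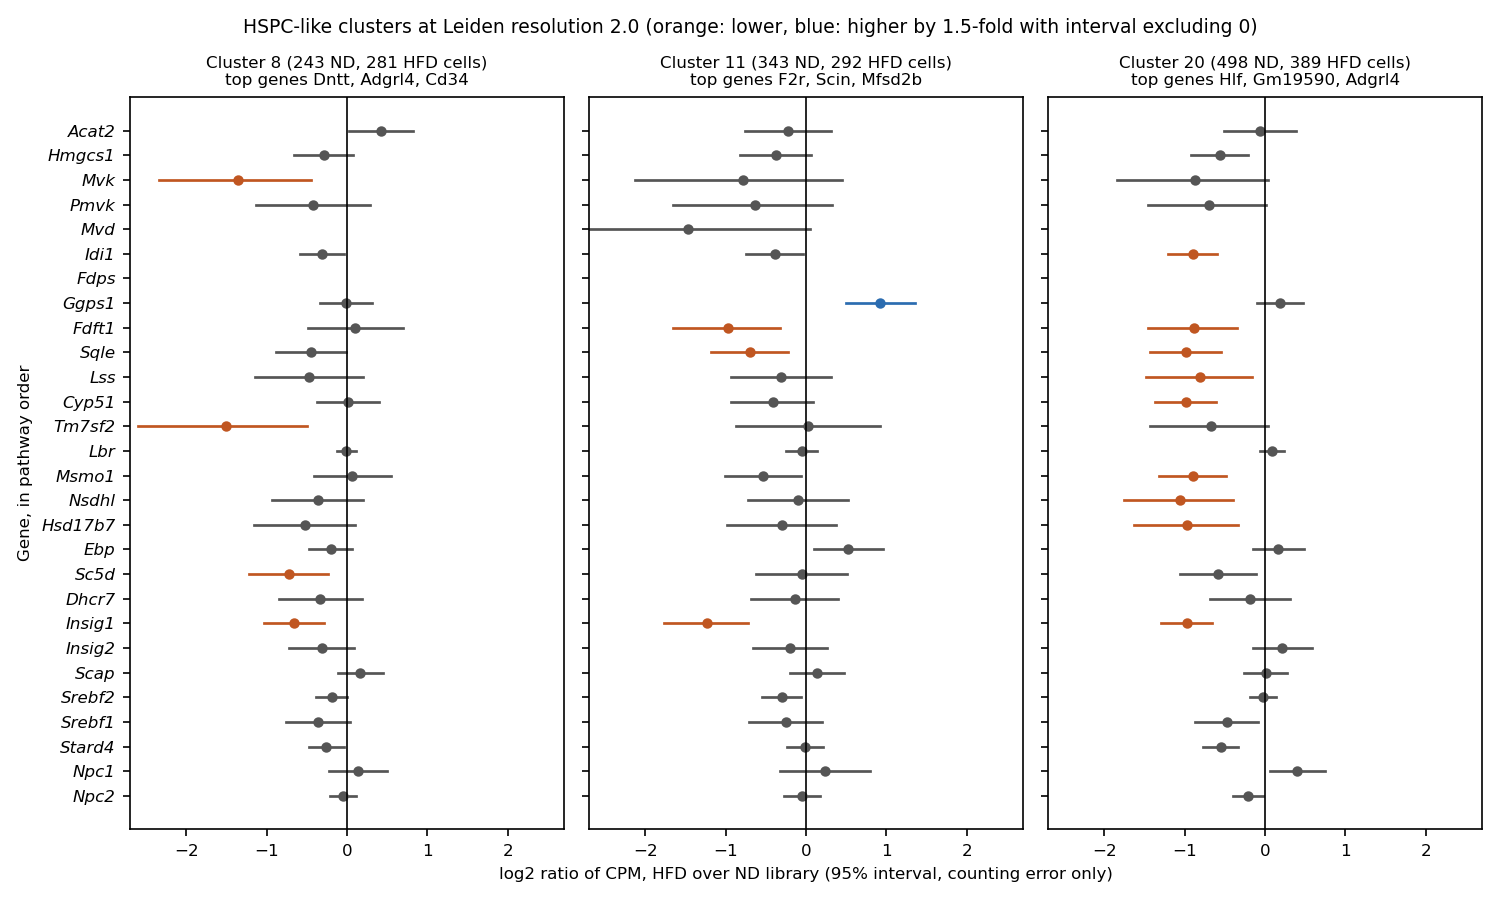
Log2 ratio of CPM, HFD over ND (x axis), of the members with at least 20 UMIs (y axis, pathway order) in the 3 HSPC-like clusters at resolution 2.0, with exact 95% intervals for counting error; orange marks called lower and blue called higher, and 1 interval is cut by the axis. Cluster 20 carries 9 orange points from Idi1 to Insig1, against 4 in cluster 8 and 3 in cluster 11.

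In cDC-like cells (230 ND and 293 HFD cells) the mevalonate steps had a median of -0.73, with all 6 genes below 0. Called lower were Hmgcs1 (143 and 98 UMIs, 80.5 and 49.0 CPM, ratio -0.72, -1.10 to -0.34) and Idi1 (157 and 100 UMIs, 88.4 and 50.001 CPM, -0.82, -1.20 to -0.45). Insig1 was called at -1.23 (-1.72 to -0.77), from 119 and 57 UMIs, or 67.0 and 28.5 CPM. Both early enzymes and the gene of the SREBP retention protein were thus lower in these cells. Sqle was called at -0.73 (-1.33 to -0.15, 62 and 42 UMIs, 34.9 and 21.0 CPM). Counts were small for Mvk (18 and 7 UMIs, 10.1 and 3.5001 CPM, -1.53, -3.04 to -0.21), Hsd17b7 (29 and 11 UMIs, 16.3 and 5.50 CPM, -1.57, -2.72 to -0.53) and Fdps (20 and 2 UMIs, 11.3 and 1.00 CPM, -3.49, -6.63 to -1.45). Insig2 was not among the calls. The summed cDC markers were at 17980 and 19025 CPM, with 1 of 16 called in each direction. G2 and M phase genes were lower as a list, with a median of -0.43 and 25 of 25 below 0, and 7 of 17 macrophage markers were called higher, from 590 to 891 CPM summed. The part of these in the result was not tested.

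Macrophage-like cells had 1720 ND and 1523 HFD cells but only 1131 and 1200 UMIs per cell. Sqle was called with 39 and 8 UMIs, or 12.5 and 2.52 CPM, a ratio of -2.31 (-3.62 to -1.19). Stard4 was at -0.93 (-1.36 to -0.52, 141 and 75 UMIs, 45.2 and 23.7 CPM), Dhcr7 at -0.85 (-1.34 to -0.37, 101 and 57 UMIs, 32.4 and 18.0 CPM) and Hmgcs1 at -0.72 (-1.13 to -0.32, 138 and 85 UMIs, 44.2 and 26.8 CPM). Early, middle and late steps were all among the 4 called. The enzyme sum was at -0.44 and -0.39 in the 2 clusters of the class. Neutrophil markers were higher in this class of the HFD library, the immature neutrophil markers summing to 149 and 531 CPM with 6 of 11 called higher. The G2 and M phase genes were lower as a sum, at 366 and 295 CPM or -0.31 (-0.44 to -0.18), with 5 of 23 measured called lower and a median of -0.30. The part of these in the result was not tested.

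Monocyte-like cells (1078 ND, 1811 HFD) had 5 members called lower. Sqle was at -0.90 (-1.39 to -0.42, 81 and 67 UMIs, 11.6 and 6.19 CPM), Dhcr7 at -0.75 (-1.23 to -0.26, 78 and 72 UMIs, 11.2 and 6.65 CPM) and Idi1 at -0.66 (-0.90 to -0.41, 283 and 278 UMIs, 40.5 and 25.7 CPM). Nsdhl was at -0.62 (-0.99 to -0.25, 126 and 127 UMIs, 18.0 and 11.7 CPM) and Pmvk at -0.59 (-1.10 to -0.08, 66 and 68 UMIs, 9.44 and 6.28 CPM). UMI counts were alike between the libraries, and the HFD library held more monocyte-like UMIs in all. The class mixed 3 clusters in different shares. Cluster 30, led by Ace and Nr4a1 of patrolling monocytes, made up 43.7% of the ND and 57.6% of the HFD cells and had the lowest enzyme level of the 3, 241 and 247 CPM, with a ratio of 0.03 (-0.15 to 0.22). The clusters led by Fn1 stood at -0.21 (-0.30 to -0.11) and -0.29 (-0.41 to -0.16). Within them the ratio was thus below 0 at a fixed cluster. Summed erythroid markers in monocyte-like cells were at 120 and 958 CPM, and their part was not tested.

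Megakaryocyte-like cells (476 ND, 416 HFD) had 4 members called lower. Insig1 was at -1.05 (-1.46 to -0.66, 177 and 77 UMIs, 39.7 and 19.1 CPM) and Fdft1 at -0.997 (-1.55 to -0.46, 95 and 43 UMIs, 21.3 and 10.7 CPM). Mvk was at -0.89 (-1.71 to -0.10, 43 and 21 UMIs, 9.64 and 5.21 CPM) and Sqle at -0.63 (-1.01 to -0.26, 163 and 95 UMIs, 36.6 and 23.6 CPM). The class itself differed between the libraries: its summed markers were at 4464 CPM in the ND and 8336 CPM in the HFD library, with 10 of 14 called higher. Whether this shift bears on the sterol genes was not tested.

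Single members were called in other classes, at shares near those of all genes. Called lower were Nsdhl in pDC-like cells (-0.63, -0.99 to -0.27, 175 and 104 UMIs, 22.8 and 14.8 CPM, all genes 2.12%) and Cyp51 in B cell-like cells (-0.60, -1.16 to -0.05, 63 and 52 UMIs, 16.9 and 11.1 CPM, 1.83%). Sqle was called in immature neutrophil-like cells (-0.70, -1.32 to -0.09, 52 and 42 UMIs, 6.95 and 4.28 CPM, 2.06%) and Mvk in erythroid-like cells (-0.66, -1.12 to -0.22, 142 and 60 UMIs, 5.63 and 3.56 CPM, 1.13%). Srebf1 was called lower in NK cell-like cells (-0.85, -1.63 to -0.12, 66 and 21 UMIs, 42.0 and 23.3 CPM, 2.09%), where 11 of 17 macrophage markers (177 and 530 CPM summed) and 8 of 25 G2 and M phase genes were called higher. Srebf2 was called lower in ILC2-like cells (-1.08, -1.68 to -0.51, 103 and 35 UMIs, 149 and 70.6 CPM, 2.2%), where 6 of the 7 measured G2 and M phase genes were called higher (172 and 581 CPM summed). Eosinophil-like cells had Mvk lower (-1.32, -2.63 to -0.13, 21 and 9 UMIs, 12.6 and 5.07 CPM, 2.89%) and Insig2 higher (0.69, 0.07 to 1.32, 36 and 62 UMIs, 21.7 and 34.9 CPM, 3.07%). Also called higher were Scap in mature neutrophil-like cells (1.04, 0.13 to 2.06, 13 and 44 UMIs, 5.80 and 12.0 CPM, 2%) and Ebp in plasma cell-like cells (0.65, 0.17 to 1.13, 63 and 94 UMIs, 40.1 and 62.8 CPM, 2.78%). Markers of other cell types differed in several of these classes. In pDC-like cells 8 of 17 macrophage markers (123 and 65.9 CPM summed) and 6 of 16 erythroid markers (352 and 83.0 CPM) were called lower, and in immature neutrophil-like cells 7 of 16 erythroid markers (643 and 142 CPM). In B cell-like cells 6 of 17 macrophage markers were called lower (185 and 118 CPM). Immature neutrophil markers were called higher in erythroid-like cells (7 of 11, 23.2 and 70.7 CPM) and in eosinophil-like cells (8 of 11, 919 and 2175 CPM). Their part in these calls was not tested.

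Within the B cell-like class, cluster 27 had 2 of 19 measured members called lower (2.68% of all genes), Idi1 (-1.29, -2.37 to -0.30, 28 and 13 UMIs) and Sc5d (-1.14, -2.11 to -0.23, 31 and 16 UMIs). Insig2 was called higher there (0.98, 0.26 to 1.74, 24 and 54 UMIs, 2.88% of all genes). Over all kept cells 1 of 28 was called lower (3.98% of all genes), Sqle at -0.72 (-0.81 to -0.63), from 2680 and 1638 UMIs or 24.4 and 14.8 CPM. Classes enter this pooled ratio in different shares, and the part of this was not tested. Erythroid-like cells gave 25203547 of 109686967 ND UMIs and 16869098 of 110678833 HFD UMIs. Sqle was also the member called in the unnamed cluster, led by Cd34 with F13a1 among its top genes, at -0.93 (-1.21 to -0.66, 291 and 176 UMIs, 24.9 and 13.04 CPM, 2.23%).

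Neutrophil progenitor-like cells, deep at 22045 and 22688.5 UMIs per cell, gave narrow intervals around small ratios. Lbr had 3286 and 3441 UMIs and a ratio of -0.07 (-0.14 to 0.00), at 301 and 287 CPM. Npc2 had 2197 and 2434 UMIs and 0.01 (-0.07 to 0.10), at 201 and 203 CPM, and Scap 723 and 872 UMIs and 0.13 (-0.01 to 0.28), at 66.2 and 72.7 CPM. These abundant members lay close to their ND level. Ebp (673 and 776 UMIs, 61.7 and 64.7 CPM) stood at 0.07 (-0.08 to 0.22) and Ggps1 (358 and 413 UMIs, 32.8 and 34.4 CPM) at 0.07 (-0.14 to 0.28). Stard4 (495 and 513 UMIs, 45.3 and 42.8 CPM) stood at -0.08 (-0.27 to 0.10), Idi1 (416 and 415 UMIs, 38.1 and 34.6 CPM) at -0.14 (-0.34 to 0.06) and Srebf2 (508 and 480 UMIs, 46.5 and 40.0 CPM) at -0.22 (-0.40 to -0.03). The interval of the 19-enzyme sum, -0.11 to 0.01, did not overlap that of HSPC-like cells. Sqle, at -0.49 (-0.82 to -0.17), was the lowest of the enzymes, and Insig1 stood at -0.21 (-0.44 to 0.03). Called outside the members, where 1.57% of all genes were lower and 1.56% higher, were Acsl3, a fatty acid CoA ligase (-0.94, -1.40 to -0.49, 115 and 66 UMIs), Abcg1, a sterol exporter (-0.75, -1.13 to -0.38, 153 and 100 UMIs), and Icmt, which methylates prenylated proteins (0.68, 0.34 to 1.04, 107 and 189 UMIs). Hspa1a and Hspa1b were 3.89 and 4.68 higher.

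Read gene by gene over the classes, Sqle lay below 0 in 12 of 12 classes that measured it, Dhcr7 in 15 of 15, and Insig1, Srebf2 and Stard4 in 14 of 16, 14 of 17 and 14 of 16. Mvk lay below 0 in 12 of 13, Pmvk in 13 of 14, Hsd17b7 in 12 of 14 and Hmgcs1 in 13 of 16. Msmo1 and Srebf1 did so in 14 of 17, and Cyp51, Sc5d and Npc2 in 13 of 17. Insig2 lay above 0 in 13 of 17, Npc1 in 14 of 17, Ggps1 and Scap in 12 of 17 and Ebp in 11 of 17. The medians over classes were -0.56 for Sqle, -0.44 for Insig1, -0.50 for Mvk and -0.30 for Stard4, against 0.11 for Insig2, 0.18 for Npc1 and 0.07 for Ggps1. All classes of a diet share 1 library, so these counts are not independent, and they carry no test. The enzyme Ebp was thus among the members above 0 in most classes.

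In the ND library Insig1 was highest in the dendritic, macrophage-like and HSPC-like classes, whereas in the HFD library plasma cell-like and monocyte-like cells stood above HSPC-like and cDC-like cells. It stood at 115 CPM in the ND and 80.3 CPM in the HFD library in pDC-like cells, 76.0 and 56.8 in macrophage-like, 67.0 and 28.5 in cDC-like, 57.0 and 32.4 in HSPC-like, 49.8 and 35.7 in monocyte-like and 45.8 and 49.4 CPM in plasma cell-like cells. Below these came megakaryocyte-like (39.7 and 19.1 CPM), neutrophil progenitor-like (29.3 and 25.4), B cell-like (28.4 and 27.8), eosinophil-like (26.5 and 24.8) and erythroid-like cells (20.7 and 14.998 CPM). The lowest were T cell-like (18.9 and 12.5 CPM), ILC2-like (18.8 and 12.1), immature neutrophil-like (18.7 and 16.2), basophil/mast-like (12.4 and 11.2), NK cell-like (12.1 and 18.9) and mature neutrophil-like cells (10.7 and 7.61 CPM). In the ND library the intervals of neighbours parted below pDC-like, megakaryocyte-like and immature neutrophil-like cells and overlapped elsewhere, and in the HFD library they parted below pDC-like cells alone. Plasma cell-like cells thus held Insig1 high while their enzyme sum was among the lowest.

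Sqle had a wider spread of levels and a different order. It was highest in pDC-like cells (58.0 CPM in the ND and 41.3 CPM in the HFD library), then in megakaryocyte-like (36.6 and 23.6), erythroid-like (35.5 and 27.6), cDC-like (34.9 and 21.0) and HSPC-like cells (33.5 and 20.5 CPM). Middle levels were found in eosinophil-like (21.7 and 15.8 CPM), ILC2-like (18.8 and 4.03), neutrophil progenitor-like (16.7 and 11.8), macrophage-like (12.5 and 2.52), basophil/mast-like (11.7 and 8.76) and monocyte-like cells (11.6 and 6.19 CPM). It was low in B cell-like (7.498 and 5.77 CPM), immature neutrophil-like (6.95 and 4.28), plasma cell-like (3.82 and 7.34), T cell-like (3.60 and 2.15), NK cell-like (3.19 and 2.22) and mature neutrophil-like cells (1.34 and 0.816 CPM). Neighbouring intervals overlapped throughout, except below pDC-like cells in both libraries. Macrophage-like cells were thus second of the 17 classes for Insig1 in both libraries, whereas their Sqle level was in the middle in the ND library and low in the HFD library.

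Hmgcs1, an early enzyme of the route, was highest in the dendritic classes, at 98.9 and 78.2 CPM in pDC-like and 80.5 and 49.0 CPM in cDC-like cells. It stood at 44.2 and 26.8 CPM in macrophage-like, 43.9 and 32.7 in HSPC-like, 40.1 and 36.6 in NK cell-like, 39.9 and 34.5 in megakaryocyte-like, 32.6 and 26.2 in monocyte-like, 31.8 and 28.2 in ILC2-like and 31.6 and 26.2 CPM in immature neutrophil-like cells. Lower were T cell-like (29.2 and 26.7 CPM), B cell-like (28.9 and 30.8), basophil/mast-like (28.9 and 27.1), eosinophil-like (26.5 and 19.7), neutrophil progenitor-like (20.3 and 18.8), erythroid-like (14.96 and 16.3), mature neutrophil-like (10.3 and 11.4) and plasma cell-like cells (4.46 and 7.34 CPM). Erythroid-like cells were thus low for Hmgcs1 although they were among the highest for Sqle. In the ND library intervals parted below cDC-like and neutrophil progenitor-like cells, and in the HFD library below pDC-like cells.

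Idi1 followed Sqle more than Hmgcs1 in this respect. It stood at 116 and 102 CPM in pDC-like, 88.4 and 50.001 in cDC-like, 74.9 and 54.6 in megakaryocyte-like, 68.0 and 60.2 in erythroid-like and 67.6 and 48.8 CPM in HSPC-like cells. Then came monocyte-like (40.5 and 25.7 CPM), immature neutrophil-like (39.7 and 28.8), neutrophil progenitor-like (38.1 and 34.6), macrophage-like (35.3 and 24.3), ILC2-like (31.8 and 18.1), eosinophil-like (31.3 and 40.0), B cell-like (30.3 and 31.0) and basophil/mast-like cells (25.9 and 25.1 CPM). The lowest were NK cell-like (14.0 and 24.4 CPM), T cell-like (13.9 and 14.2), plasma cell-like (12.7 and 11.4) and mature neutrophil-like cells (5.80 and 7.89 CPM). Intervals parted in the ND library below pDC-like, HSPC-like and basophil/mast-like cells, and in the HFD library below pDC-like cells.

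**Figure D5:**
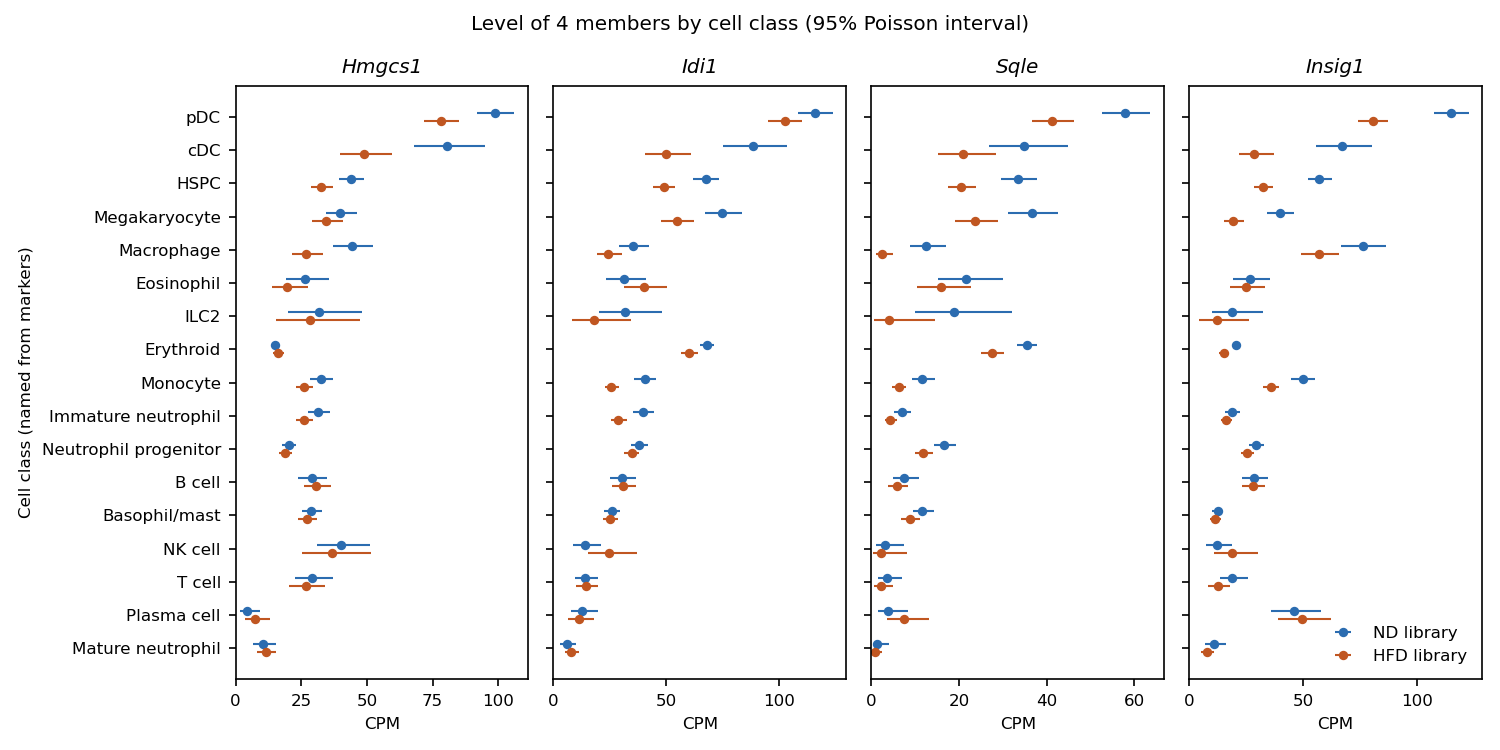
CPM (x axes, from 0) of Hmgcs1, Idi1, Sqle and Insig1 in 17 classes (y axis, ordered by the ND enzyme sum) with 95% Poisson intervals, ND in blue and HFD in orange. Insig1 in cDC-like cells stands at 67.0 and 28.5 CPM, and erythroid-like cells are high for Idi1 (68.0 and 60.2 CPM) and low for Hmgcs1 (14.96 and 16.3 CPM).

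The remaining members differed in where they were highest in the ND library. Nsdhl, Msmo1, Dhcr7, Fdft1, Pmvk, Acat2, Cyp51, Sc5d and Scap peaked in pDC-like cells, from 22.8 CPM for Nsdhl to 108 CPM for Scap. Srebf1 (56.1 CPM), Insig2 (46.8 CPM), Tm7sf2 (16.7 CPM), Npc1 (195 CPM) and Npc2 (806 CPM) peaked in macrophage-like cells, which take up and clear whole cells. Srebf2 (208 CPM), Mvd (16.3 CPM) and Fdps (11.3 CPM) peaked in cDC-like cells. Single peaks were Stard4 in megakaryocyte-like (153 CPM), Hsd17b7 in immature neutrophil-like (52.2 CPM), Ebp in monocyte-like (103 CPM), Ggps1 in T cell-like (67.5 CPM), Lss in ILC2-like (21.7 CPM), Mvk in eosinophil-like (12.6 CPM) and Lbr in mature neutrophil-like cells (662 CPM). On the scale of log2(mean CPM of the 2 libraries + 1) over 17 classes, the members most like the sum of the other enzymes without Lbr were Idi1 (Pearson r = 0.89), Pmvk (0.86), Mvk (0.84) and Sqle (0.82). The least alike were Insig2 (0.00), Lbr (0.04) and Ggps1 (0.15). These correlations describe classes that share the same libraries and differ in depth.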

How the data were processed

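Single-cell RNA was measured in 1 bone marrow library per diet, so that groups hold 1 sample each. The deposited values are whole-number counts of molecules (UMIs), written by the BD WTA Rhapsody pipeline in version 1.9.1, per the file headers. Its reference was a custom one, and the build is not given in the sources used here. The values of 5 antibody tags were not used. Members and gene lists were chosen with earlier results of these data known.

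Genes were matched by symbol, with 0 for a symbol that only the other library lists. A cell was kept if it had 200 genes or more and no more than 25% of mitochondrial UMIs, and Scrublet doublets (expected rate 5%) were removed. Clustering of the 2 libraries jointly used igraph 0.11.9 and scanpy 1.11.5 under Python 3.11.15 with scipy 1.17.1, on 2000 variable genes, 30 principal components and 15 neighbours at Leiden resolution 1, without integration. Of 32 clusters, 1 stayed unnamed. A cluster took the class with most markers among its top 50 genes, with at least 3 needed. The markers of 19 classes were used.

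UMIs were summed per class and library and scaled to the class total (CPM). The log2 ratio of HFD over ND has an exact conditional binomial 95% interval, which leaves out the clustering of UMIs within cells. Where a count was 0, a floor of 3 stood in for it. A gene was called at 1.5-fold or more with an interval excluding 0, among genes with at least 20 UMIs. UMIs are 3' tags, so that no length scaling was applied. The ratios were tested on simulated data. These were independent Poisson counts, so they check the calculation only, not the spread between cells, mice or libraries. Named in full were members called in any of the 17 classes with at least 100 cells per library, the 8 members with most UMIs in HSPC-like and neutrophil progenitor-like cells, Insig1, Sqle, Hmgcs1 and Idi1 over all classes, and at most 4 genes called in those 2 classes from each of 8 other lists. The result of 1 such gene is not reported here. Alternatives changed the cell filter, doublet removal, resolution, scaling, weighting, depth, minimum UMIs, fold of the call and the enzymes summed. The sum without Lbr and the clusters described were chosen after seeing the data. Plots were made in matplotlib 3.10.9.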

Additional observations from a re-analysis of the deposited data

How the results depend on the processing

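With 1 library per diet there is no replicate to leave out, and depth limits the low members: under 20 UMIs a ratio was not read, and after thinning to 1000 UMIs few molecules per member were left. No paired analysis was possible because each diet has 1 library. Over all kept cells the enzyme sum of -0.09 became -0.0711 with median-of-ratios size factors and -0.19 without the enzyme with most UMIs, which is Lbr. Members called lower there numbered 1, against 2 after thinning, 0 at 2-fold and 11 with a lower fold for a call. In HSPC-like cells the enzyme sum of -0.18 became -0.36 without Lbr. Members lower numbered 6, against 10 with all cells kept, 3 after thinning, 2 at 2-fold and 16 at the lower fold. In neutrophil progenitor-like cells the enzyme sum of -0.06 turned to 0.0056 as a mean over cells and 0.0366 after thinning, and 1 member was lower with all cells, at resolution 0.5, as a mean over cells, after thinning and at the lower fold, against 0. The causes were not tested. Of 328 alternatives for 37 named member ratios, 322 kept their direction. The 6 that turned, all after thinning, were Pmvk in monocyte-like (0.25), Dhcr7 in macrophage-like (0.0786), Mvk in cDC-like (0.23), Cyp51 in B cell-like (0.17), Ebp in plasma cell-like (-0.13) and Mvk in erythroid-like cells (1.22), where intervals reached across 0.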
